A study of Mus musculus with 24 samples.

Results

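The cholinergic and motor neuron genes described here were 10 of the 54446 genes counted in each library, chosen by symbol and not by their values. They fall into 2 sets. *Slc18a3*, *Chat*, *Slc5a7* and *Ache* serve acetylcholine itself, and *Isl1*, *Isl2*, *Mnx1*, *Lhx3*, *Lhx4* and *Prph* serve the motor neurons that use it. The RNA came from 12 embryos of stage E14.5 (days of gestation), littermates from crosses of heterozygous mice that were either *Tfap2b*+/+ (control) or *Tfap2b*-/- (mutant). The mutant allele carries a PGK-neo cassette in an exon of *Tfap2b*, a transcription factor gene of the AP-2 family, in every cell of the animal. From each embryo the secondary prosencephalon (SP, the telencephalon with the hypothalamus) and the diencephalon, midbrain and hindbrain together (DMH) were dissected, which gave 24 libraries, 3 for each sex, genotype and region.

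A cholinergic neuron makes acetylcholine with choline acetyltransferase (*Chat*), loads it into vesicles with the vesicular transporter VAChT (*Slc18a3*) and takes choline back up with the high-affinity transporter (*Slc5a7*), while acetylcholinesterase (*Ache*) breaks the transmitter down in the synapse. In the embryonic brainstem the main cholinergic cells are the cranial motor neurons. Their LIM homeodomain factors *Isl1* and *Isl2*, and in somatic motor neurons *Lhx3*, *Lhx4* and *Mnx1*, direct motor neuron fate, and peripherin (*Prph*) is an intermediate filament of neurons whose axons leave the central nervous system. Several of these genes have other sites of expression. *Isl1* also marks striatal and hypothalamic neurons and sensory ganglia, *Isl2* and *Prph* mark sensory ganglia, and *Lhx3* and *Lhx4* mark V2 interneurons and the pituitary.

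*Slc18a3* (ENSMUSG00000100241.1) is a single-exon gene that lies inside *Chat* (ENSMUSG00000021919.8). In GRCm38 *Slc18a3* spans chr14:32462438-32464850 and *Chat* chr14:32408203-32465989, both on the minus strand. Their annotated exons share 0 bases, but a fragment of unspliced *Chat* RNA from this stretch would be counted as *Slc18a3*. The transporter for choline uptake, *Slc5a7*, is on chromosome 17. The 250 bases before the annotated starts of these 3 genes are shown because the genes moved together in the comparisons of the brain pieces (RefSeq, GRCm38.p6, minus strand, 5′ to 3′). The windows are chr14:32464851-32465100 for *Slc18a3*, chr14:32465910-32466159 for *Chat* and chr17:54299035-54299284 for *Slc5a7*. Capitals mark the homeodomain core ATTA, or TAAT on the other strand.
Slc18a3: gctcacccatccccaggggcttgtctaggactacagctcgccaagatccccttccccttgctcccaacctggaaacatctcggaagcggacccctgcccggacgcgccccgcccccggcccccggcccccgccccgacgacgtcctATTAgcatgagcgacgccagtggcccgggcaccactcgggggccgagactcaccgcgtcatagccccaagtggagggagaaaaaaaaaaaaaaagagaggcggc
Chat: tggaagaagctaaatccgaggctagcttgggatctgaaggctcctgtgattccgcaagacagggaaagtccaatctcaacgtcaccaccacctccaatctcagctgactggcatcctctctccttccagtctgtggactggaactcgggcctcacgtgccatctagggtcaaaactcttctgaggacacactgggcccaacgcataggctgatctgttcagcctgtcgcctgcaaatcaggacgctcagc
Slc5a7: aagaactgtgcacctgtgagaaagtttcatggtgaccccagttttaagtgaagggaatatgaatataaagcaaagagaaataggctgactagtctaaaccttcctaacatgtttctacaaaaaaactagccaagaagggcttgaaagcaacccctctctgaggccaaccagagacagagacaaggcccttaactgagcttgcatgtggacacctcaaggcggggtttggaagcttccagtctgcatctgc
The *Slc18a3* window held the core once, starting 104 bases before the start, and the windows of *Chat* and *Slc5a7* held none. All 10 genes matched the RefSeq table, with 11 windows in all, since *Lhx3* has a window for each of its starts. Of these 11 windows 4 held the core (*Slc18a3*, *Isl1*, *Mnx1* and *Lhx3*), as did 54.9% of the 32851 windows in the table. The longer motif TAATTA, which reads the same on both strands, was in 0 of the 11 windows and in 4.84% of all windows. These matches are letters in a window and were not tested as binding sites.

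Levels are given as CPM, each library's counts scaled to a common total of fragments on genes after normalization over the 24 libraries, and between genes as CPM per kilobase of exon. Each library had 24.7 to 66.8 M fragments on genes. A count of 3, the floor used here, was worth 0.0449 to 0.121 CPM, and covers counting error only. The *Tfap2b* count checked the genotype labels of the DMH libraries. It was 281 to 435 CPM in the DMH of controls and 50.4 to 56.6 CPM in that of mutants, with no overlap. In SP, at 3.48 to 4.19 CPM in controls and 2.75 to 4.72 CPM in mutants, the groups overlapped and the count checks no label. Female mut3 was left out of the fits, as in the study, because its DMH library stands apart. Its summed skeletal muscle markers were at 643 CPM against 5.75 to 8.27 CPM in the other DMH libraries, and its cartilage markers at 1739 CPM against 64.0 to 88.2 CPM. The embryo labelled female control 2 had transcripts of the Y chromosome in both of its libraries. It was kept as labelled, and taking sex from these transcripts left the numbers of these genes called by brain region and by Hox content as they were.

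The DMH libraries were of 2 kinds by their *Hox* transcripts. In 8 of the 12 DMH libraries the summed level of 15 caudal *Hox* genes, which mark the posterior hindbrain and spinal cord, was 241 to 451 CPM, and these are called Hox-rich. In the other 4 it was 0.105 to 0.405 CPM, within reach of the SP (0 to 0.341 CPM), and these are called Hox-poor. The Hox-poor pieces came from female control 1, female mutants 1 and 2 and male mutant 2. These classes were read from the data and are no groups of the study. They are uneven between genotypes, with 1 control and 3 mutants in the Hox-poor class. Male mutant 2 was intermediate, with rostral hindbrain *Hox* genes and *Egr2* at a sum of 19.3 CPM, against 0.265 CPM in female control 1 and 108 to 132 CPM in the Hox-rich libraries.

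The first question was where in the brain these genes were read. Of the 10 genes 9 passed the filter on low counts in the controls, and 8 of them were higher in DMH than in SP. None was lower, and *Isl1* stayed under the thresholds. Among all genes tested 35.9% were called between these regions, and 21.2% were called higher in DMH. A call here needs a log2 fold change beyond 0.5 in either direction with an adjusted p under 0.2, as the study set them, in edgeR's quasi-likelihood test with Benjamini-Hochberg adjustment. *Chat*, *Isl2*, *Lhx3* and *Lhx4* were too low to pass the filter in SP alone and entered through DMH, where they were high, so their direction was fixed by the filter. With at least 10 counts in every library 4 of 5 genes were called (*Slc18a3*, *Slc5a7*, *Ache* and *Prph*), and 31.9% of all genes. In these whole pieces of tissue, fewer cells of a type and less RNA per cell cannot be told apart.

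The transmitter genes came first in this order of roles. *Slc18a3* ranged from 0.356 to 0.750 CPM (median 0.397) in the 6 control SP libraries and from 1.44 to 7.48 CPM (median 6.36) in the 6 control DMH libraries. The lowest DMH value, that of female control 1, was still above every SP value. The fitted difference was 3.59 ± 0.38 on the log2 scale (SE, adjusted p = 4.5e-06), a 12.0-fold difference. *Slc5a7* rose from 0.712 to 1.51 CPM in SP to 5.03 to 15.98 CPM in DMH, by 3.16 ± 0.24 on the log2 scale. *Ache* lay at 1.71 to 3.95 CPM in SP and at 13.4 to 24.0 CPM in DMH, higher by 2.81 ± 0.14. Neither gene overlapped between the regions. *Chat*, at 0.0255 to 0.175 CPM in SP and 0.151 to 1.17 CPM in DMH, was higher by 2.98 ± 0.38, and its lowest DMH value, again female control 1, fell inside the SP range.

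The motor neuron factors of the LIM family divided. *Lhx4* had 5 counts in all 6 control SP libraries together and 1573 in the 6 DMH libraries, a ratio of 322 per fragment (95% interval 138 to 993, counting error only). *Lhx3* had 4 and 258 counts, a ratio of 66.0 (25.5 to 244), and both were past the thresholds (adjusted p = 1.0e-10 and 7.5e-06). *Isl2* was at 0.0275 to 0.178 CPM in SP and 1.19 to 4.51 CPM in DMH, higher by 4.56 ± 0.52. *Prph* was at 0.412 to 1.97 CPM in SP and 5.25 to 67.7 CPM in DMH, higher by 4.48 ± 0.70. These 4 genes did not overlap between regions, and over all 10 genes the count without overlap was 7, with every DMH control above every SP control, as for 21% of the genes tested. *Mnx1*, which specifies somatic motor neurons, was too low to be tested, with 3 counts in SP and 43 in DMH.

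*Isl1* was the only tested gene that was not called between the control regions. It ranged from 15.8 to 39.3 CPM (median 32.7) in control SP and from 27.5 to 42.6 CPM (median 34.1) in control DMH, and the difference was 0.15 ± 0.21 on the log2 scale (adjusted p = 0.53). The low end in SP was male control 3 alone, and the other 5 SP controls were at 29.2 CPM or above. Without male control 3 the difference was -0.06.

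**Figure D1:**
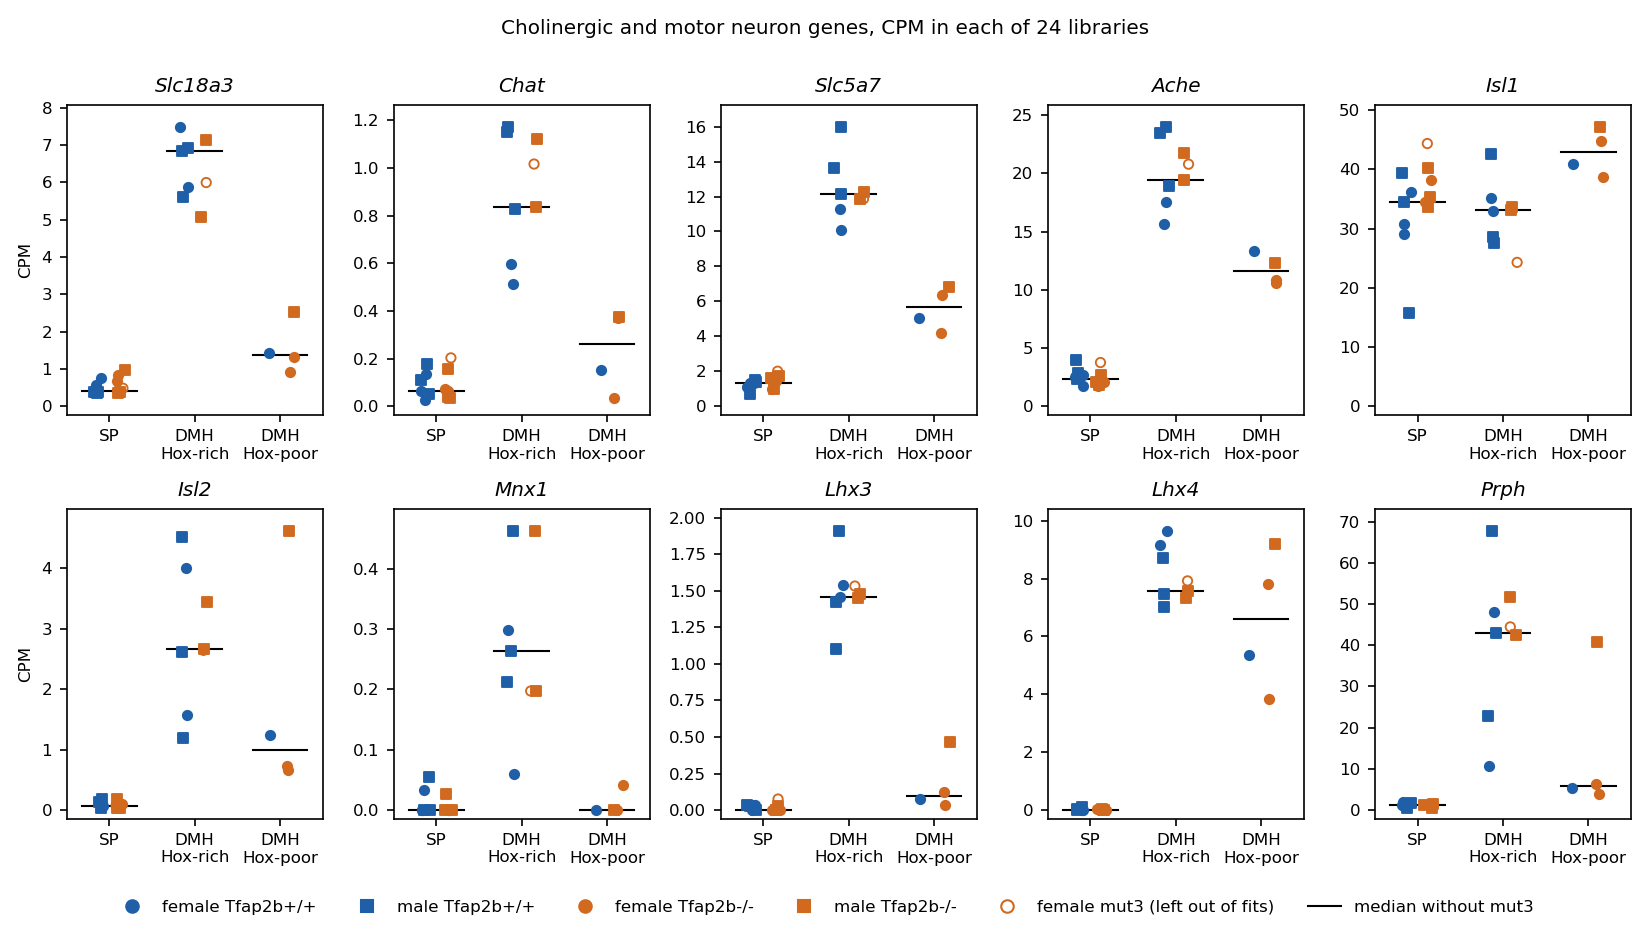
CPM of the 10 genes (vertical axis, linear, from 0, with its own scale for each gene) in the 12 SP, 8 Hox-rich DMH and 4 Hox-poor DMH libraries; circles are female, squares male, blue *Tfap2b*+/+, orange *Tfap2b*-/-, the open circle is female mut3 and the bar is the median of the class without it. *Slc18a3*, *Slc5a7*, *Ache* and *Lhx3* sit in separate bands in Hox-rich and Hox-poor pieces, while *Isl1* overlaps between SP and both DMH classes.

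In the 5 mutant embryos of each region the picture was the same in number, with 8 of 9 genes called higher in DMH (36.2% of all genes called, 20.3% called higher in DMH). The log2 difference was 2.09 ± 0.51 for *Slc18a3*, 2.61 ± 0.60 for *Chat*, 2.50 ± 0.25 for *Slc5a7* and 2.78 ± 0.19 for *Ache*. Every DMH mutant was above every SP mutant for 6 of the 10 genes, as for 20.7% of the genes tested. The difference was 4.59 ± 0.41 for *Isl2* and 3.97 ± 0.56 for *Prph*. *Isl1* differed by 0.07 ± 0.11 (adjusted p = 0.62). The test of whether the regional difference itself changed with genotype called 0 of the 10 genes in edgeR, with the Hox class as a term, 0 had an unadjusted p under 0.05, and 0.00546% of all genes were called (DESeq2 was not run for it). With the 2 fitted mutant embryos whose DMH pieces were Hox-rich, a choice made after the data were seen, the difference was 3.09 for *Slc18a3*, 4.51 for *Chat* and -0.23 for *Isl1*.

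Ordered by CPM per kilobase, *Prph* (20.5 ± 9.43, SD, n = 7) and *Isl1* (8.44 ± 1.24) led in the Hox-rich DMH pieces, and their ranges overlapped. *Ache* followed (4.36 ± 0.67), then *Slc18a3* (2.66 ± 0.37) and *Slc5a7* (2.21 ± 0.33), which overlapped each other, then *Lhx4* (1.42 ± 0.18) and *Isl2* (1.30 ± 0.56), which overlapped too, and *Lhx3* (0.486 ± 0.078). *Chat* (0.189 ± 0.057) and *Mnx1* (0.124 ± 0.065) were last and overlapped. In the control SP *Isl1* stood alone on top (7.82 ± 2.10, n = 6), above *Prph* (0.689 ± 0.277) and *Ache* (0.578 ± 0.160), with all others under 0.32. *Chat* was thus read far less than the transporter gene nested in it. In the Hox-rich libraries, female mut3 included, *Slc18a3* was 11.5 to 24.5 times as high per kilobase as *Chat* (median 12.1), on 17 to 67 *Chat* fragments a library.

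The next question was how these levels differed between DMH pieces rich and poor in *Hox* transcripts. Between the 7 Hox-rich and the 4 Hox-poor DMH libraries, with sex and genotype as terms, 6 of the 10 genes were called higher in Hox-rich pieces and none lower. Over all genes tested 6.89% were called, and 5.6% were called higher. *Chat*, *Lhx3* and *Mnx1* did not have 10 counts in every library and are low in Hox-poor pieces, so they could pass the filter through the Hox-rich class. With at least 10 counts in every library 3 of 7 genes were called (*Slc18a3*, *Slc5a7* and *Ache*), and 5.9% of all genes. Every Hox-rich library lay above every Hox-poor library for the same 6 genes, *Slc18a3*, *Chat*, *Slc5a7*, *Ache*, *Lhx3* and *Mnx1*, as it did for 10.5% of the genes tested.

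*Slc18a3* was at 1.44 CPM in female control 1, 1.31 and 0.912 CPM in female mutants 1 and 2 and 2.52 CPM in male mutant 2. In the Hox-rich libraries it was at 5.07 to 7.48 CPM (median 6.85). The classes were far apart, and male mutant 2, the intermediate piece, was the highest of its class. The difference was 1.85 ± 0.26 on the log2 scale, 3.60-fold (adjusted p = 0.0039). *Slc5a7* was at 5.03, 6.39, 4.21 and 6.80 CPM in the Hox-poor pieces, in the same order, and at 10.1 to 15.98 CPM (median 12.1) in the Hox-rich ones, a difference of 0.92 ± 0.15 (adjusted p = 0.0053).

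*Ache* showed the smallest step among the called genes. It was at 13.4, 10.6, 10.9 and 12.3 CPM in the Hox-poor pieces and at 15.7 to 24.0 CPM in the Hox-rich ones, 0.53 ± 0.12 on the log2 scale (adjusted p = 0.018). Without male mutant 2 or male mutant 3 its difference was no longer past the thresholds. *Chat* was at 0.151, 0.368, 0.0351 and 0.374 CPM in Hox-poor pieces and at 0.514 to 1.17 CPM in Hox-rich ones, a difference of 1.47 ± 0.41 (adjusted p = 0.042).

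*Lhx3* was higher in Hox-rich pieces, without overlap. It was at 0.0756, 0.123 and 0.0351 CPM in the female Hox-poor libraries, which is close to the floor, at 0.468 CPM in male mutant 2, and at 1.10 to 1.91 CPM (median 1.46) in the Hox-rich libraries. The difference was 2.82 ± 0.44 on the log2 scale (adjusted p = 0.0053), and it ranged from 2.54 to 4.21 on leaving out each replicate. *Mnx1* had 1 count in the 4 Hox-poor libraries together and 70 in the 7 Hox-rich ones, a ratio of 29.1 per fragment (95% interval 5.05 to 1165, counting error only; adjusted p = 0.036). DESeq2, and the fits without male control 1, male mutant 2 or male mutant 3, did not call it or left it untested.

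The other 4 genes overlapped between the classes. *Lhx4* was at 5.37, 7.82, 3.83 and 9.20 CPM in the Hox-poor pieces against 7.01 to 9.65 CPM, a difference of 0.27 ± 0.27 (adjusted p = 0.56), and of 0.71 without male mutant 2, past the thresholds. *Isl1* was the only gene whose median was lower in Hox-rich pieces. It was at 41.0, 38.8, 44.8 and 47.2 CPM in Hox-poor pieces and at 27.5 to 42.6 CPM (median 33.2) in Hox-rich ones, and the difference of -0.37 ± 0.15 had an adjusted p of 0.14 but was under the fold threshold. With female mut3 in the fit 7 of 9 tested genes were called, *Isl1* (lower in Hox-rich pieces) and *Prph* among them, along with 13.4% of all genes, and *Mnx1* was not tested.

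*Isl2* and *Prph* split the Hox-poor class. *Isl2* was at 1.25, 0.737 and 0.667 CPM in its female libraries but at 4.61 CPM in male mutant 2, the highest of all 12 DMH libraries. *Prph* was at 5.25, 6.30 and 3.93 CPM in the female libraries and at 40.7 CPM in male mutant 2. In the Hox-rich class both varied widely, *Isl2* from 1.19 to 4.51 CPM and *Prph* from 10.6 to 67.7 CPM, with female control 2 and male control 2 lowest for both. The class differences were 0.33 ± 0.70 and 1.28 ± 0.78 (adjusted p = 0.80 and 0.34). Without male mutant 2 they were 1.58 and 2.53 and still not called, and without female control 3 the difference of *Isl2* turned to -0.22.

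Markers of sensory ganglia, which lie beside the hindbrain outside the brain, were set beside *Prph* and *Isl2*. The list of 11 ganglion markers includes *Scn10a*, a sodium channel of nociceptors, *P2rx3*, their ATP receptor, and *Avil*. Of the 11, *Drgx* matched no gene in the counts. *Scn10a* was at 0.0756, 0.0409, 0.0351 and 2.34 CPM in the Hox-poor libraries, and thus at or under the floor in all but male mutant 2. *P2rx3* was at 2.15, 2.21, 2.00 and 12.1 CPM in the Hox-poor libraries in the order given above, and at 4.60 and 4.64 CPM in female control 2 and male control 2, with 10.4 to 16.1 CPM in the other Hox-rich libraries. These are the libraries in which *Prph* was low and high. The ganglion markers named here were chosen after their values were seen, so the p values of the relations that follow, here and for *Hoxb3*, describe the pairs and are no independent test. Within the 7 Hox-rich libraries *Prph* followed *P2rx3* with a Pearson r of 0.94 and a Spearman rho of 1.00 (exact permutation test, two-sided, p = 2.0e-04 and 4.0e-04; adjusted p = 0.012 and 0.025 over the 63 pairs of genes computed). Without the 2 libraries farthest from the median of *P2rx3* the r was 0.97. *Isl2* followed *P2rx3* with r = 0.95 and rho = 0.89 (exact permutation test, adjusted p = 0.023 and 0.097), and r = 0.82 without the 2 farthest libraries.

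Summed over the list without *Drgx*, the ganglion markers were at 142 to 205 CPM in Hox-rich and 131 to 174 CPM in Hox-poor pieces, a sum led by *Pou4f1*, which midbrain neurons also express. Their summed level was 11.5 to 20.8 CPM in control SP. The 6 markers of Schwann cells and crest glia were at 24.5 to 46.2 CPM in Hox-rich and 13.2 to 32.8 CPM in Hox-poor pieces. In the class comparison, where 6.89% of all genes were called and 5.6% were called higher, 2 of 10 tested ganglion markers and 3 of 6 glia markers were called, all higher in Hox-rich pieces, and the other ganglion and glia markers were not, *Pou4f1* (-0.25 ± 0.07), *Six4* (0.19 ± 0.19) and *Avil* (0.38 ± 0.63) among them. The called ones include *Tlx3* (1.66 ± 0.36) and *Sox10* (1.13 ± 0.30, and 1.78 without male mutant 2). The part of ganglia and nerve in the levels of *Prph* and *Isl2* was not tested further.

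*Lhx3* ran against the ganglion markers among the Hox-rich libraries, with r = -0.81 and rho = -0.86 for *P2rx3* (exact permutation test, adjusted p = 0.038 and 0.14, r = -0.92 without the 2 farthest libraries) and r = -0.83 and rho = -0.79 for *Avil* (exact permutation test, adjusted p = 0.041 and 0.22, r = -0.98 without the 2 farthest). For *Slc18a3* the relation with *P2rx3* was weak in number among Hox-rich libraries (r = 0.18, rho = 0.57, exact permutation test, adjusted p = 0.89 and 0.50). With the rostral *Hoxb3* the relation was closer in number (r = 0.86, rho = 0.86, exact permutation test, adjusted p = 0.060 and 0.14), and r was 0.63 without the 2 farthest libraries. Of the 7 pituitary markers, *Pou1f1* and *Cga* were at or under the floor in all DMH libraries, and the list's sum was 2.20 to 4.05 CPM in Hox-rich and 4.50 to 6.49 CPM in Hox-poor pieces. *Pomc*, the precursor of pituitary and hypothalamic peptides, was at 1.14 to 2.81 CPM in Hox-rich and 2.19 to 4.63 CPM in Hox-poor pieces. *Pitx1*, a factor of the pituitary and first pharyngeal arch, was at 0.731 to 1.24 CPM in Hox-rich and 1.72 to 2.27 CPM in Hox-poor pieces, lower in Hox-rich pieces by 1.21 ± 0.20 on the log2 scale (adjusted p = 0.0053). The part of the pituitary, another site of *Lhx3* and *Lhx4*, in the levels of these genes was not tested.

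**Figure D2:**
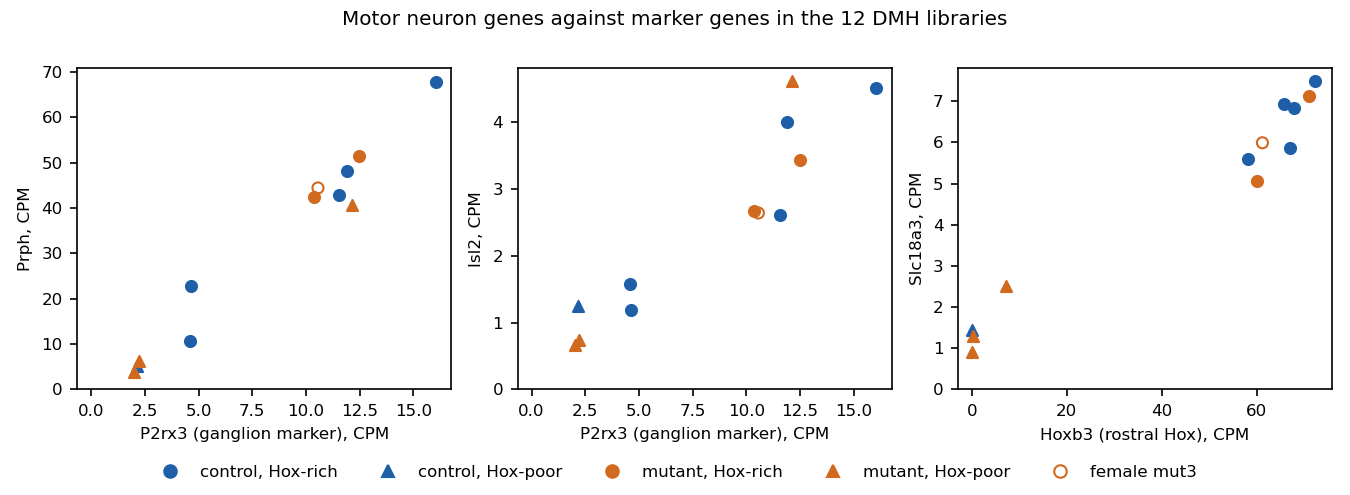
CPM of 3 of the genes (vertical axes) against CPM of a marker gene (horizontal axes) in the 12 DMH libraries; circles are Hox-rich, triangles Hox-poor, blue control, orange mutant and the open circle female mut3. *Prph* and *Isl2* rise with *P2rx3*, also in the Hox-poor triangle of male mutant 2 at 12.1 CPM of *P2rx3*, while *Slc18a3* parts into the Hox classes.

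The genes whose log2 levels were most like those of *Slc18a3* over the 11 DMH libraries, among 17555 tested, were *Gm12688* (Pearson r = 0.986), *Tes* (0.986) and *Pax2* (0.985). For *Mnx1* they were *Hoxa7* (0.966), *Ctnna3* (0.961) and *Hoxb9* (0.959), and for *Isl1* *Pitpnb* (0.938), *Pold3* (0.934) and *Top3a* (0.920). These values describe libraries that fall into the Hox classes, and *Mnx1* rests on few counts.

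The question of the study was what the loss of *Tfap2b* does to gene expression. By edgeR with the settings above, none of the 10 genes was called between mutant and control in the DMH or SP of either sex or of both, and the exceptions under other settings, all in the female DMH, are given with that comparison. In the fit of both sexes with the Hox class as a term, 0 of 10 genes were called by edgeR's quasi-likelihood test or by DESeq2, 0 had an unadjusted p under 0.05, and 0.0228% of all genes were called. The log2 differences were -0.18 ± 0.22 for *Slc18a3*, -0.14 ± 0.13 for *Slc5a7* and -0.18 ± 0.10 for *Ache*, and those of the other 7 genes lay between -0.13 and 0.02. Without the Hox class as a term the differences were -1.02 for *Slc18a3*, -0.57 for *Slc5a7* and -0.41 for *Ache*, and 0 of 9 genes were called. In the fit with the Hox class *Dbh*, which makes noradrenaline, was lower in mutants by 3.07 ± 0.31 on the log2 scale (adjusted p = 0.0015).

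In the female DMH the fitted differences were large and uncertain. *Slc18a3* was at 1.44, 5.87 and 7.48 CPM in female controls 1 to 3 and at 1.31 and 0.912 CPM in female mutants 1 and 2. The mutants lay below the controls, but female control 1 lay close to them. The difference was -2.16 ± 0.79 (adjusted p = 0.56). *Ache* (13.4, 15.7 and 17.6 against 10.6 and 10.9 CPM) differed by -0.53 ± 0.13 and *Isl2* (1.25, 1.57 and 3.99 against 0.737 and 0.667 CPM) by -1.70 ± 0.59 (adjusted p = 0.55 for both). These 3 genes had every control above every mutant, as 13.8% of the genes tested did. *Prph* differed by -2.07 ± 1.34, *Chat* by -1.15 ± 0.82, *Slc5a7* by -0.73 ± 0.38, *Lhx4* by -0.47 ± 0.37 and *Isl1* by 0.21 ± 0.11, all with adjusted p of 0.57 or above. Leaving out each replicate moved *Prph* to between -2.53 and -0.64 and *Chat* to between -3.45 and -0.22. *Slc5a7* moved to between -1.05 and -0.46 and *Lhx4* to between -1.06 and -0.04. *Lhx3* had 102 counts in the 3 controls and 4 in the 2 mutants, and the 95% interval of the ratio per fragment was 5.49 to 54.2 (counting error only).

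Of the 9 genes tested 0 were called in the female DMH by edgeR, 4 had an unadjusted p under 0.05, and edgeR called 0.00596% of all genes. DESeq2 called 1 of the 9, *Lhx3*, and 0.459% of all genes. Both female mutants were Hox-poor, as was female control 1, and the other 2 female controls were Hox-rich. Without female control 1 the fit called 5 of the 9 genes, *Slc18a3*, *Slc5a7*, *Ache*, *Isl2* and *Lhx3*, all lower in mutants, and 6.63% of all genes (1117). In that comparison every control was Hox-rich and every mutant Hox-poor, so genotype and Hox class cannot be told apart. With all 5 female libraries and no filter on low counts 3 of 10 genes were called (*Ache*, *Isl2* and *Slc5a7*), as were 1.81% of all genes. With female mut3, whose DMH piece was Hox-rich, 0 were called and *Chat* turned to 0.29.

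In the male DMH 0 of 9 genes were called by edgeR or DESeq2, 0 had an unadjusted p under 0.05 in edgeR, and 0.0236% of all genes were called. *Slc18a3* was at 6.93, 6.85 and 5.60 CPM in male controls 1 to 3 and at 5.07, 2.52 and 7.13 CPM in male mutants 1 to 3. The low value was the Hox-poor male mutant 2, and the groups overlapped, as they did for all 10 genes (2.64% of the genes tested had every male control above every male mutant and 7.3% every control below). The differences were -0.42 ± 0.34 for *Slc18a3*, -0.43 ± 0.35 for *Chat*, -0.45 ± 0.23 for *Slc5a7*, -0.33 ± 0.22 for *Ache*, -0.37 ± 0.39 for *Lhx3* and 0.32 ± 0.46 for *Isl2* (adjusted p from 0.87 to 0.89). Leaving out each replicate moved them to between -0.77 and -0.12 for *Slc18a3*, -0.72 and -0.14 for *Chat*, -0.50 and -0.12 for *Ache* and -0.65 and -0.03 for *Lhx3*, with the smallest size in each without male mutant 2. The test of a difference between the sexes in the genotype effect, with the Hox class as a term, called 0 of 10 genes in edgeR (0.0% of all genes called, 0 of the 10 with an unadjusted p under 0.05, DESeq2 not run). The nearest were *Slc18a3* (0.80 ± 0.37, unadjusted p = 0.054) and *Lhx3* (1.81 ± 0.87, unadjusted p = 0.059), both with an adjusted p of 1. This test took female control 2 as female, as labelled. It was not rerun with sex from the Y transcripts, and neither was the female DMH comparison.

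**Figure D3:**
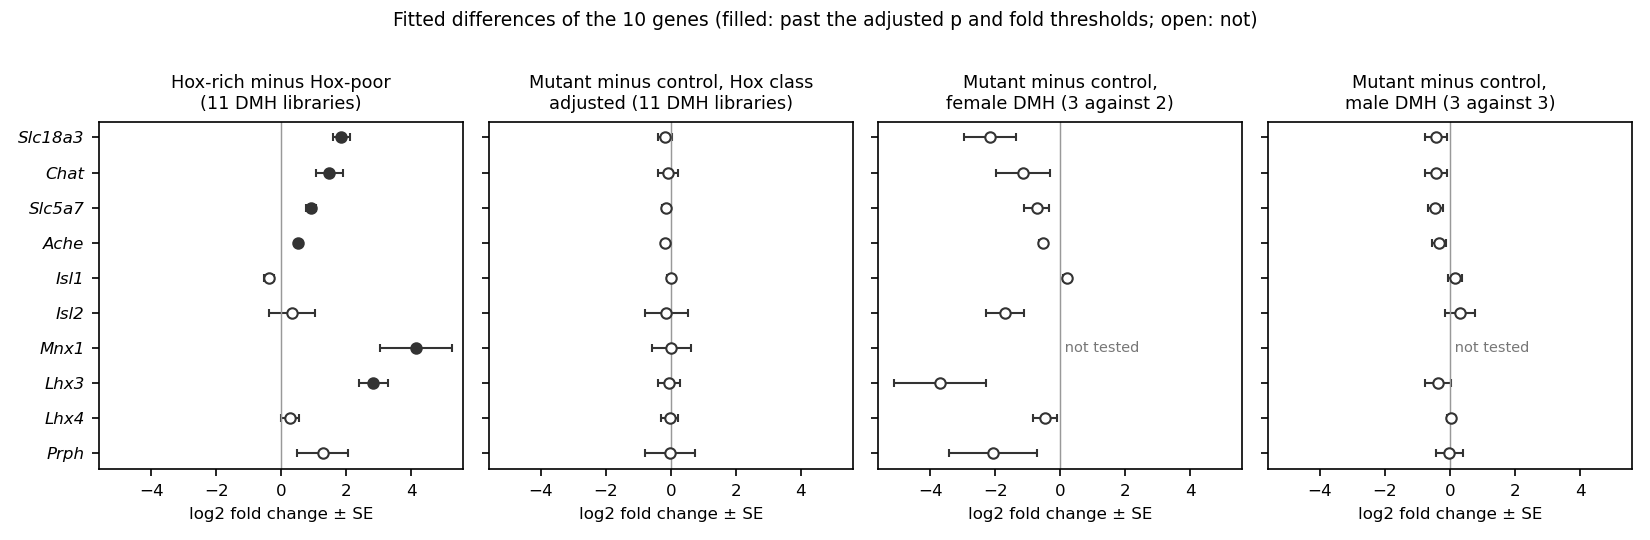
Log2 fold changes (horizontal axis) with their standard errors for the 10 genes in 4 comparisons of DMH libraries; filled points are past both thresholds, open points are not. The 6 filled points are all in the comparison of Hox classes, where the size for *Mnx1* rests on 1 count in the Hox-poor libraries, and with that class as a term the genotype differences lie between -0.18 and 0.02.

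In the SP 5 of the 10 genes were abundant enough to be tested (*Slc18a3*, *Slc5a7*, *Ache*, *Isl1* and *Prph*). In the fit of both sexes 0 of 5 were called by edgeR or DESeq2, 0 had an unadjusted p under 0.05 and 0.0% of all genes were called. *Slc18a3* was at 0.356 to 0.750 CPM in controls and at 0.357 to 0.976 CPM in mutants, a difference of 0.52 ± 0.28 on counts of 9 to 35 fragments a library. *Isl1* (15.8 to 39.3 against 33.7 to 40.2 CPM) differed by 0.26 ± 0.18 and *Ache* (1.71 to 3.95 against 1.73 to 2.65 CPM in the 5 fitted mutants) by -0.37 ± 0.18, all with an adjusted p of 0.90. For each sex alone *Slc18a3* differed by 0.42 ± 0.32 in females and 0.61 ± 0.45 in males, with 0 of 5 genes called in either (0.0181% and 0.0% of all genes).

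The receptors that read acetylcholine were followed as lists. Of 16 nicotinic subunit genes, which form ligand-gated channels, 10 were tested between the control regions, and 6 were higher in DMH (*Chrna3*, *Chrna4*, *Chrna5*, *Chrna6*, *Chrnb3* and *Chrnb4*) and none lower, beside 35.9% of all genes called and 21.2% called higher. *Chrna3* was at 4.93 to 6.81 CPM in control SP and 21.6 to 27.3 CPM in control DMH, a log2 difference of 2.04 ± 0.08, and *Chrna5* was higher by 2.28 ± 0.13. *Chrna6*, a subunit of midbrain dopamine neurons, rose from 0.0525 ± 0.061 to 2.04 ± 0.52 CPM (SD, n = 6 each), by 5.12 ± 0.39. The muscarinic receptors, which act through G proteins, went both ways. *Chrm2* (1.79 ± 0.14) and *Chrm3* (1.72 ± 0.09) were higher in DMH, as was *Chrm5*, *Chrm1* fell by 2.01 ± 0.13, and *Chrm4* was not called.

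By Hox class 1 of 10 nicotinic genes was called, near the 6.89% of all genes. It was *Chrna6*, which was lower in Hox-rich pieces (-0.62 ± 0.16, adjusted p = 0.030). Of the 5 muscarinic genes *Chrm2*, the autoreceptor of many cholinergic neurons, was called higher (0.66 ± 0.16, adjusted p = 0.029). Of the 7 genes of cholinesterase anchoring and choline handling, *Chkb*, a choline kinase, was called higher (0.68 ± 0.32, adjusted p = 0.19). By genotype, with the Hox class as a term, 0 of 10 nicotinic, 0 of 5 muscarinic and 0 of these 7 genes were called, in a fit that called 0.0228% of all genes. Of these 7, 3 were higher in control DMH than in control SP, beside 35.9% of all genes called and 21.2% called higher. Among the 3 were *Prima1*, the membrane anchor of acetylcholinesterase (3.00 ± 0.24), and *Bche*, butyrylcholinesterase (0.82 ± 0.09).

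**Figure D4:**
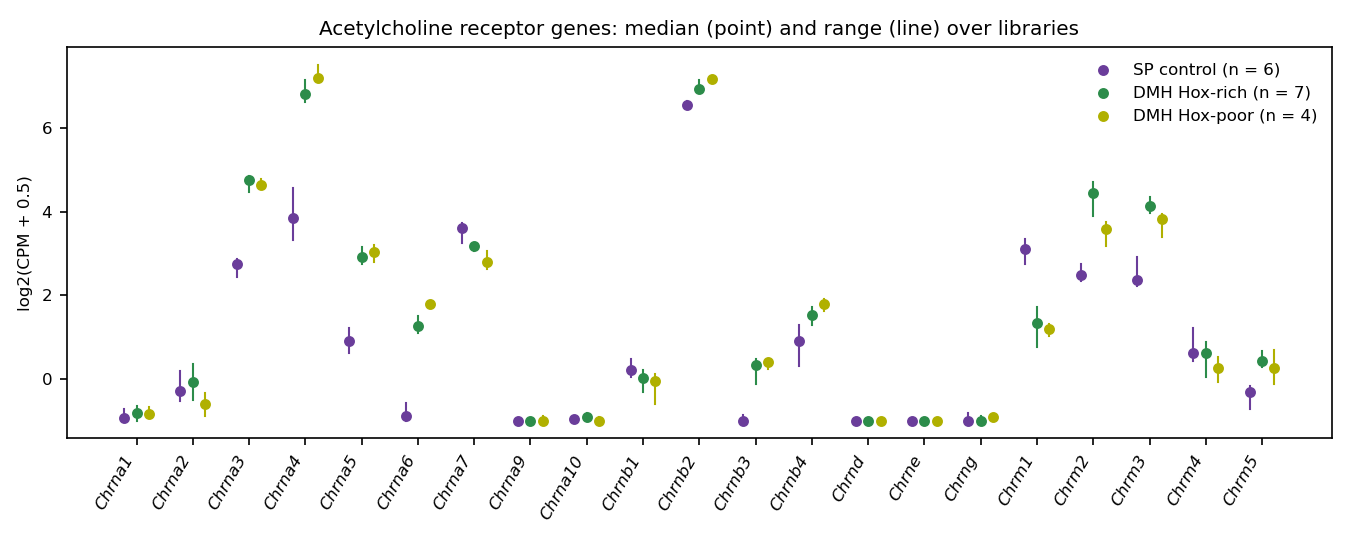
Levels of the 16 nicotinic and 5 muscarinic receptor genes as log2(CPM + 0.5) on the vertical axis, in 6 control SP, 7 Hox-rich and 4 Hox-poor DMH libraries; points are medians and lines the range. *Chrna3*, *Chrna5* and *Chrna6* are higher in both DMH classes than in SP, and *Chrm1* is higher in SP.

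Factors of other motor neuron classes were compared between the Hox classes, where 6.89% of all genes were called. Of 7 tested genes of branchial and visceral motor neurons, which innervate pharyngeal arch muscles and autonomic ganglia, 4 were called higher in Hox-rich pieces (*Phox2a* and *Tbx20* among them) and none was called lower. *Gata3*, with the smallest p of this list, was lower in Hox-rich pieces (-0.49 ± 0.10, adjusted p = 0.018) but under the fold threshold. *Tbx20* was at 0.227, 1.60 and 0.351 CPM in the female Hox-poor libraries, at 3.96 CPM in male mutant 2 and at 6.43 to 7.23 CPM in the Hox-rich ones (2.08 ± 0.64). *Phox2a* differed by 1.77 ± 0.39. Without male mutant 2 the differences were 3.44 for *Tbx20* and 2.68 for *Phox2a*. Among 7 progenitor genes *Olig1* was higher (0.59 ± 0.13), and *Nkx2-2* (-0.60 ± 0.12) and *Neurog2* (-0.77 ± 0.20) were lower. Of 17 genes of motor columns and effectors 5 were higher and 1 lower, with *Chodl* (1.14 ± 0.21) and *Calca*, the CGRP precursor of motor and sensory neurons (1.03 ± 0.21), among the former. The V2 interneuron factors *Sox14* (-0.55 ± 0.11) and *Foxn4* (-0.71 ± 0.23) were lower in Hox-rich pieces, and the other 3 V2 genes tested, *Lhx4* and *Gata3* among them, were not called.

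Between the control regions, where 35.9% of all genes were called, all 7 branchial and visceral factors were higher in DMH, *Nkx6-1* by 5.21 ± 0.23, and so were 12 of the 17 column and effector genes, *Ret*, the GDNF receptor, by 3.72 ± 0.24, while 1 was lower, *Etv1* (-0.58 ± 0.05). The progenitor factors were mixed, with *Olig1* higher (1.92 ± 0.17) and *Neurog2* (-2.08 ± 0.21) and *Pax6* (-1.25 ± 0.06) lower in DMH. Of 7 factors linked to forebrain cholinergic neurons, 3 were higher in SP, *Lhx6* (lower in DMH by 2.63 ± 0.48), *Lhx8* and *Nkx2-1*, while the other 4, the neurotrophin receptor *Ngfr* (1.53 ± 0.15) among them, were higher in DMH. By genotype with the Hox class as a term, edgeR called 0 genes in each of these lists and 0.0228% of all genes.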

How the data were processed

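RNA-seq of SP and DMH from 12 embryos gave 24 stranded polyA libraries. The authors trimmed reads (cutadapt 2.4, per the submitters' processing notes), aligned them with STAR 2.6.1d to GRCm38.p6 and deposited raw counts of fragments per gene; the annotation release is not given in the sources used here. The rows that name no gene held 17.3 to 25.9% of fragments and were left out. Symbols matched 54409 of the 54446 gene IDs. Female mut3 was left out of the fits, as in the study.

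In R 4.3.3, the robust quasi-likelihood test of edgeR 4.0.16 was run on the counts (filterByExpr, TMM, Benjamini-Hochberg adjustment over all genes tested), and a gene was called at an adjusted p under 0.2 and a log2 fold change beyond 0.5 in either direction. CPM are the usual counts per M fragments on genes, TMM-scaled. An SE is the log2 fold change over the square root of F. DESeq2 1.42.0, other filters and normalizations, the replicate block and leaving out each replicate were alternatives. The SP and DMH of an embryo deviated together (r = 0.070 to 0.429). The main region fits had sex as a term and were not paired by embryo. Pairing by embryo was the replicate block alternative of these comparisons. Hox-rich means a caudal Hox sum of at least 50 CPM. Intervals of pooled counts are exact at 95%. The script was tested on simulated counts.

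The genes, lists and tests were chosen with earlier results of these data known. Named list genes are up to 3 called genes per list with the smallest p in the region and in the Hox class comparison. Other genes are named only to complete a count or after their values were seen (*Scn10a*, *P2rx3*, *Avil*, *Pou4f1*, *Six4*, *Etv1*, *Hoxb3*). Some marker genes are not reported here. No pair of libraries of a group agreed within sampling noise.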

Additional observations from a re-analysis of the deposited data

Results flagged for a closer look

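Of 34 groups of values tested for a sample far from the rest, 2 were past Dixon's 95% value, and chance flags about 1 in 20. *Slc18a3* in the DMH of controls was at 1.44 CPM in female control 1, with a gap of 0.689 of the range of the 6 controls, the other 5 being at 5.60 to 7.48 CPM; this piece was Hox-poor. *Lhx4* in the DMH of mutants, female mut3 included, was at 3.83 CPM in female mutant 2, with a gap of 0.651 of the range. No test of a difference between sexes or regions in the genotype effect was past the adjusted threshold for the 10 genes.

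Female mut3, left out of the main comparisons, was scanned for 39 cholinergic genes, and 5 stood over 3 times above the highest of the other 11 DMH libraries. *Chrna1* was at 6.55 CPM (highest other 0.142), *Chrnb1* at 3.05 CPM (0.661), *Chrnd* at 2.62 CPM (0.0152) and *Chrng* at 3.79 CPM (0.0378). These are subunits of the acetylcholine receptor of fetal muscle. *Colq*, the collagen tail that anchors acetylcholinesterase at the neuromuscular junction, was at 1.17 CPM (0.198). The summed skeletal muscle markers of this library were at 643 CPM, against 5.75 to 8.27 CPM in the others; their part in these values was not tested.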

How the results depend on the processing

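The 0 members called by genotype in the male DMH, in each sex of the SP, in the SP of both sexes and in the DMH with the Hox class stayed 0 under every alternative run for them. In the female DMH the count was 0, but 3 with no filter on low counts, 1 with DESeq2, and 0 to 5 on leaving out each replicate (5 without female control 1, when 1117 genes were called over all). By Hox class 6 genes were called, 3 with at least 10 counts in every sample (7 of 10 genes tested) and 4 to 6 on leaving out each replicate. By region 8 were called, 4 in controls and 3 in mutants with at least 10 counts in every sample (5 and 4 genes tested), and 8 to 8 and 7 to 8 on leaving out each replicate. Control and mutant libraries share only a replicate number (r = -0.155 to 0.541), and with the replicate block the female DMH had 0 calls, the Hox class 7 (*Isl1* added) and each region comparison 8.

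Values that were not called changed sign. In the female DMH with female mut3, *Chat* turned to 0.2886 and *Isl1* to -0.0144. In the male DMH *Isl2* ranged from -0.0316 to 0.8286 on leaving out each replicate (negative without male control 2). By Hox class *Isl2* was -0.072 with the replicate block and ranged from -0.2249 (without female control 3) to 1.5824. By genotype with the Hox class, *Ache* was 0.0405 in Hox-rich libraries with female mut3 (chosen after the data were seen), and *Slc18a3* ranged from -0.3343 to 0.0173 on leaving out each replicate (positive without male mutant 1). With no Hox term *Slc18a3* was -1.0162, *Slc5a7* -0.5665 and *Ache* -0.4117, still not called. *Isl1* by region ranged from -0.0631 (without male control 3) to 0.3018 in controls. In mutants it ranged from -0.0106 (without female mutant 2) to 0.1925, was -0.0576 with female mut3 and -0.2276 without embryos of Hox-poor pieces (chosen after the data were seen). The cause was not tested. A count of 3 is 0.0449 to 0.121 CPM, so changes in *Mnx1*, in *Chat* in SP and in *Lhx3* in SP and in the female Hox-poor pieces were at the limit of this depth.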
